A study of Saccharomyces cerevisiae with 15 samples.

Results

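The genes described here encode the soluble factors that carry an mRNA through initiation, elongation and termination on the cytosolic ribosome of Saccharomyces cerevisiae. They are a named list of 39 genes, set by the annotation of their probe sets, and the genes of eIF5A are left out of it. No measured value entered that rule, but the genes and lists were chosen with earlier results of these data known. Of the 39 genes, 37 had a probe set, out of 5588 genes measured in all. TIF1 and EFT1 had none of their own. The probe sets of TIF2, EFT2 and TEF2 carry the array's suffix for probes shared between transcripts. TIF1 and TIF2 encode the same eIF4A protein, EFT1 and EFT2 the same eEF2, and TEF1 and TEF2 the same eEF1A, so the signal of each of these 3 probe sets may sum both copies.

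The 15 arrays comprised 5 groups of 3. They were y1y8, yap1, yap8 and wild type, each sampled at 60 min with arsenate (AsV), and wild type at 0 min with no treatment. Yap1 is a regulator of oxidative and metal stress genes, Yap8 (gene ARR1) is a regulator of arsenic resistance genes, and y1y8 lacks both. The design text of the series gives 2 mM arsenate with growth to exponential phase, and describes yap1yap8 cells transformed with vectors that were empty or held one of those genes. Which group carried which plasmid, and whether this dose applies to the 60 min samples, is not settled by the labels. The design text speaks of growth in triplicate, but no sample label names a separate culture, so the spread between arrays may be partly technical. All p-values here rest on that spread. Those of the limma fit, and each SE, take it within groups and pool it over all 5 groups. The limma fit also draws each gene's spread towards a prior value estimated across genes (13 degrees of freedom with the prior). No mutant was sampled without arsenate, and no wild type was kept untreated for 60 min, so arsenate and time cannot be told apart.

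All 37 measured factors were called present on all 15 arrays. The highest deposited signal on an array was 10786.6 to 12565.3, and the median over yeast probe sets was 548.2 to 933.8. YAP1 had a mean log2 signal of 9.20 ± 0.12 in y1y8 and 9.21 ± 0.21 in yap1, against 11.67 ± 0.16 in treated wild type (SD, n = 3 each). ARR1 was called absent on the 3 arrays of y1y8 and the 3 of yap8 and present on the other 9. YAP1 was still called present on the 3 arrays of y1y8 and the 3 of yap1, at the lower level given.

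As background, initiation in yeast begins when eIF4E binds the mRNA cap and eIF4G joins it to the helicase eIF4A and to poly(A)-binding protein. The small ribosomal subunit, loaded with eIF1, eIF1A, eIF3, eIF5 and the eIF2 complex that brings the initiator tRNA, then scans to the start codon, where eIF5B joins the subunits. eIF2B recharges eIF2 with GTP and is the point at which the Gcn2 kinase restrains initiation. During elongation eEF1A delivers aminoacyl-tRNAs, eEF2 moves the ribosome along, and fungi need a further ATPase, eEF3. eRF1 and eRF3 release the finished chain.

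After 60 min of arsenate most translation factor transcripts were lower in wild-type cells, and a few stood apart. Of the 37 measured genes 31 fell, 2 rose and 4 were not called at an adjusted p under 0.05 in limma's test over all 5588 genes. Over all genes, 39.2% were called lower and 41.9% higher. The median log2 change of the factors was -0.65, where the median of all genes was 0.03, and SE ran from 0.05 to 0.14 (n = 3 arrays per group). The changes of the factors ranged from -1.66 for NEW1 to 2.10 for HEF3. At least 2-fold falls were called for 8 of them (all genes 17.8%), namely TIF4631, TIF3, CAF20, PRT1, NIP1, TIF5, GCD1 and NEW1. At least 2-fold rises were called for 1, HEF3 (all genes 17.2%). The arrays measured RNA of whole cultures, so fewer cells with a transcript and less of it per cell cannot be told apart.

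The size of the falls depended on the scaling. With each array centred on its median yeast probe set, in place of quantile normalization, the median of the factors was -0.99 and that of all genes -0.03, with the same numbers called (31 lower and 2 higher). With centring over all probe sets, those of other species included, the medians were -1.33 and -0.37, and 35 factors were called lower and 2 higher (53.6% of all genes lower). Each change is relative to the rest of the transcripts on the array, so total RNA per cell was not measured.

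**Figure D1:**
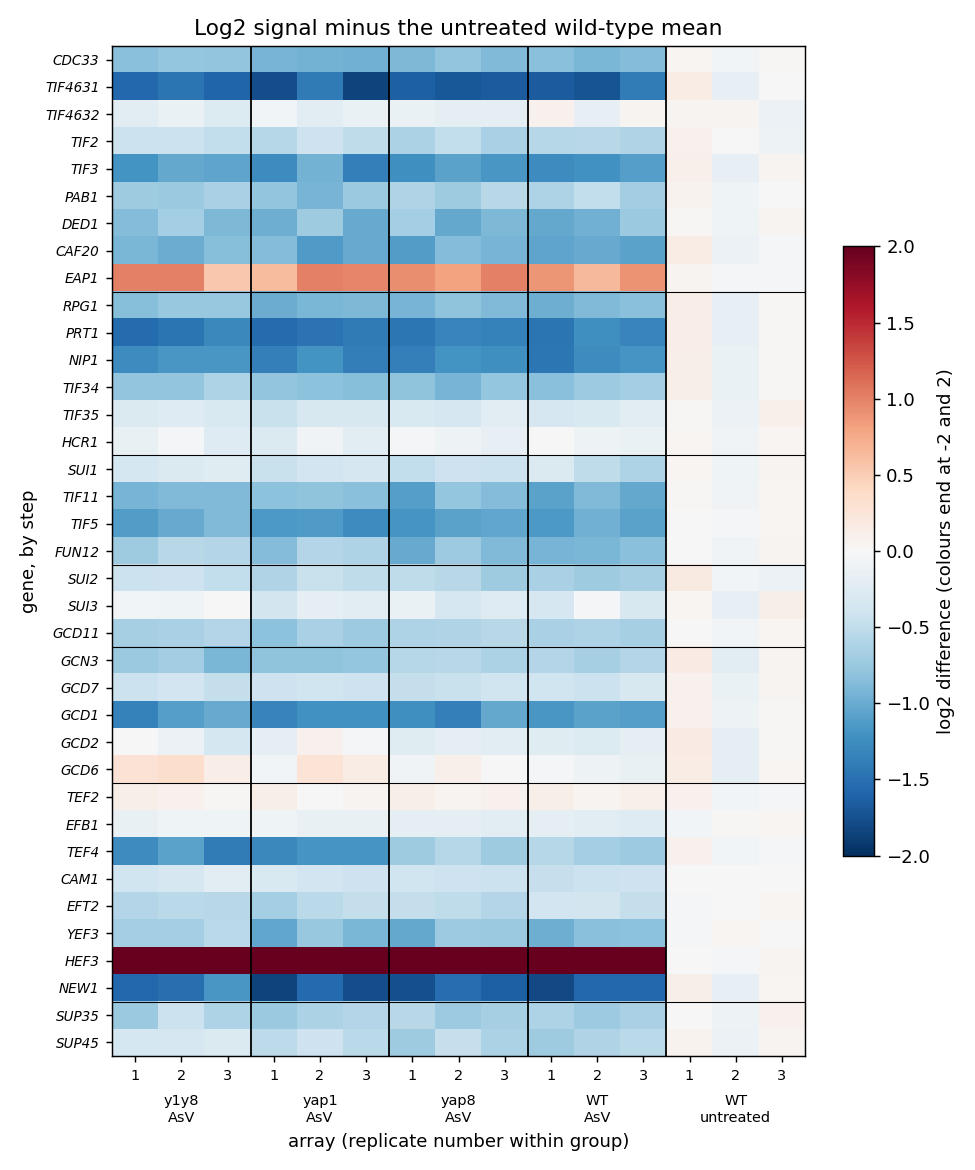
Log2 normalized signal of the 37 measured translation factor genes on each of the 15 arrays, minus the mean of the 3 untreated wild-type arrays, with genes in rows by step of translation and arrays in columns by group (AsV, arsenate; WT, wild type). Blue is lower and red higher than untreated, and HEF3 lies beyond the red end of the colours in every treated group. For 29 of the genes all 12 treated arrays lie below the 3 untreated ones.

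The lower level was shared by all treated strains. For 29 of the 37 factors each of the 12 treated arrays, wild type and mutant, lay below each of the 3 untreated arrays, as held for 34.0% of all genes. For 2 factors, EAP1 and HEF3, all 12 lay above (36.1% of all genes). The 6 genes whose arrays overlapped were TIF4632, HCR1, SUI3, GCD2, GCD6 and TEF2. The same 29 genes lay lower, and the same 2 higher, without overlap when only the 3 treated wild-type arrays were set against the untreated ones (40.2% and 42.3% of all genes).

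At the cap, 7 of 9 measured genes fell, 1 rose and 1 was not called, with a median log2 change of -0.87. The counts by step, here and below, stand beside 39.2% called lower and 41.9% higher over all genes. CDC33, which encodes the cap-binding protein eIF4E, had a normalized signal of 2700, 2557 and 2639 in treated wild type, against 4937, 4650 and 4870 in untreated wild type. These groups did not overlap and the change was -0.87 ± 0.05 (adjusted p = 4.1e-09). TIF4631, one of the pair of eIF4G scaffold genes, had 900, 854 and 1078 in treated wild type, against 3118, 2537 and 2866 in untreated wild type. It fell by 1.59 ± 0.12, a 3.01-fold drop (adjusted p = 2.81e-08) and the largest at this step. The arrays of its paralogue TIF4632 overlapped, at 1260, 1068 and 1234 in treated wild type, against 1246, 1239 and 1098 in untreated wild type. Its change was -0.01 ± 0.08 (adjusted p = 0.91), or -0.35 (adjusted p = 0.00512) with centring over all probe sets. The log2 change of TIF4632 thus exceeded that of TIF4631 by 1.58, with no overlap of the within-array differences, and an exact two-sided permutation test gave p = 0.1, the smallest that 3 arrays against 3 allow.

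The other cap-side factors fell by less than TIF4631. TIF2, read by the shared eIF4A probe set, had 6014, 6069 and 5919 in treated wild type, against 9543, 9006 and 8313 in untreated wild type (-0.58 ± 0.07, adjusted p = 2.31e-06). TIF3, encoding the eIF4A partner eIF4B, changed by -1.18 ± 0.10 (adjusted p = 1.52e-07). DED1, a second RNA helicase used in scanning, changed by -0.91 ± 0.11, and PAB1, the poly(A)-binding protein, by -0.60 ± 0.07. The groups of these genes did not overlap.

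The 2 genes for proteins that bind eIF4E and keep eIF4G off it moved in opposite directions. EAP1 had 1812, 1544 and 1839 in treated wild type, against 1023, 954 and 968 in untreated wild type, and rose by 0.82 ± 0.13 (adjusted p = 5.56e-05), 1.76-fold. CAF20 had 2009, 2080 and 1987 in treated wild type, against 4634, 3871 and 4060 in untreated wild type, and fell by 1.04 ± 0.09 (adjusted p = 1.26e-07). Neither gene had overlapping groups. The change of EAP1 exceeded that of CAF20 by 1.86 (exact permutation p = 0.1, the smallest possible). EAP1 was the only one of the initiation factor genes called higher, and it kept a change of 0.81 with median centring.

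**Figure D2:**
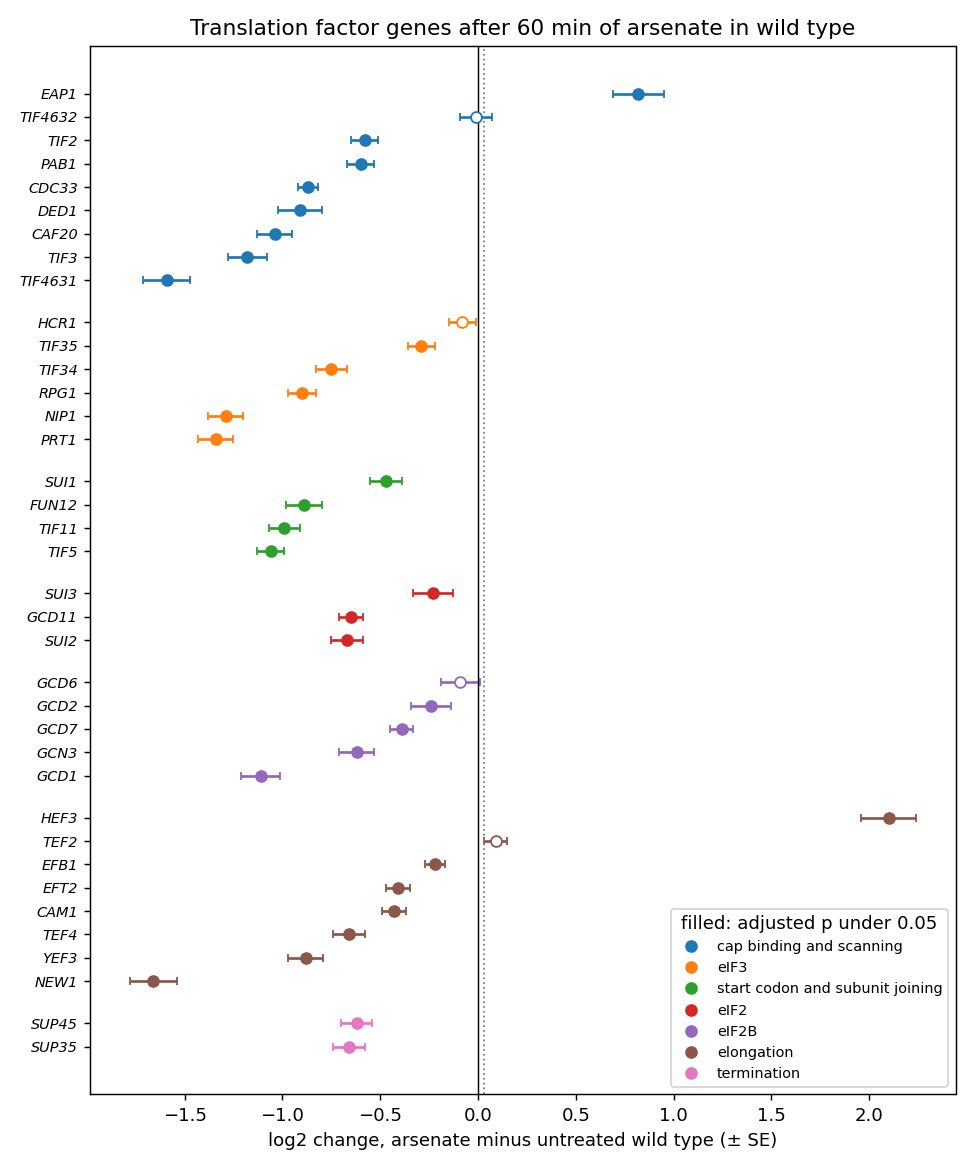
Log2 change in treated against untreated wild type for each of the 37 measured genes, with SE bars (n = 3 arrays per group), coloured by step and ordered within a step. Filled points passed an adjusted p under 0.05, the solid line marks no change and the dotted line the median of all genes (0.03). HEF3 and EAP1 lie to the right, and TIF4632, HCR1, GCD6 and TEF2 are open.

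The eIF3 complex, which organises the scanning subunit, fell unevenly, with 5 of 6 genes lower and a range from -1.34 to -0.08. PRT1 (eIF3b) had 1266, 1493 and 1386 in treated wild type, against 3822, 3118 and 3532 in untreated wild type. Its change of -1.34 ± 0.09 (adjusted p = 9.95e-09) was the largest of the complex, close to NIP1 (eIF3c) at -1.29 ± 0.09. RPG1 (eIF3a) changed by -0.90 ± 0.07, TIF34 (eIF3i) by -0.75 ± 0.08 and TIF35 (eIF3g) by -0.29 ± 0.07 (adjusted p = 0.00128). The gene of the loosely bound subunit eIF3j, HCR1, had 3124, 2909 and 2859 in treated wild type, against 3211, 2978 and 3204 in untreated wild type, so its groups overlapped. HCR1 was not called here (-0.08 ± 0.07, adjusted p = 0.337) but was with median centring (-0.37, adjusted p = 0.00216).

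All 4 genes of start codon choice and subunit joining fell. TIF5 encodes eIF5, which triggers GTP hydrolysis on eIF2. It had 1196, 1372 and 1263 in treated wild type, against 2665, 2567 and 2729 in untreated wild type, and fell by 1.06 ± 0.07 (adjusted p = 1.59e-08). TIF11 (eIF1A) changed by -0.99 ± 0.08 and FUN12 (eIF5B) by -0.89 ± 0.09. SUI1 (eIF1), which guards start codon accuracy, changed least at -0.47 ± 0.08 (adjusted p = 7.27e-05).

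The 3 eIF2 subunit genes fell too. SUI2, whose alpha subunit is the substrate of the Gcn2 kinase, had 2196, 2108 and 2160 in treated wild type, against 3894, 3297 and 3165 in untreated wild type (-0.67 ± 0.08, adjusted p = 3.15e-06). GCD11, the gamma subunit that binds GTP and the initiator tRNA, changed by -0.65 ± 0.06 (adjusted p = 1.37e-07). SUI3, the beta subunit, lay near the threshold with overlapping groups (-0.23 ± 0.10, adjusted p = 0.0448). This call was lost under 11 of the 23 alternatives.

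Of the 5 eIF2B genes 4 fell and the range was wide. GCD1, the gamma subunit of the catalytic part, had 850, 909 and 893 in treated wild type, against 2023, 1775 and 1935 in untreated wild type, and fell by 1.11 ± 0.10 (adjusted p = 2.03e-07). Its catalytic partner GCD6, the epsilon subunit, had 1603, 1534 and 1493 in treated wild type, against 1819, 1450 and 1687 in untreated wild type. These arrays overlapped and GCD6 was not called (-0.09 ± 0.10, adjusted p = 0.407), though it was with centring over all probe sets (-0.48, adjusted p = 0.00602). In the regulatory part of eIF2B, GCN3 (alpha) changed by -0.62 ± 0.09 and GCD7 (beta) by -0.39 ± 0.06, and their groups did not overlap. GCD2 (delta) had overlapping groups and a change of -0.24 ± 0.10 (adjusted p = 0.0464). The GCD2 call was lost under 14 of the 23 alternatives.

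Elongation held both extremes of the whole list. Of 8 measured genes 6 fell, 1 rose and 1 was not called. HEF3, a second eEF3 gene known for expression in zinc-poor yeast, had 679, 675 and 657 in treated wild type, against 155, 151 and 162 in untreated wild type. It rose 4.30-fold (2.10 ± 0.14, adjusted p = 6.56e-09). YEF3, the main eEF3 gene, had 5316, 5866 and 5898 in treated wild type, against 10214, 10729 and 10513 in untreated wild type, and fell by 0.88 ± 0.09 (adjusted p = 8.39e-07). The change of HEF3 exceeded that of YEF3 by 2.99 (exact permutation p = 0.1, the smallest possible). The pair is similar in sequence, and how far probes of one read the other was not tested.

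NEW1, an ABC protein related to eEF3 that acts late in translation of certain messages, had 1002, 1176 and 1172 in treated wild type, against 3835, 3138 and 3598 in untreated wild type. Its fall of 1.66 ± 0.12, or 3.15-fold, was the largest of the 37 (adjusted p = 2.78e-08). The eEF1B complex, which recharges eEF1A, fell moderately. TEF4, one of its gamma subunit genes, had 4060, 3805 and 3667 in treated wild type, against 6434, 5839 and 5926 in untreated wild type (-0.66 ± 0.08, adjusted p = 7.06e-06). CAM1, the other gamma gene, had 2719, 2787 and 2821 in treated wild type, against 3764, 3710 and 3752 in untreated wild type (-0.43 ± 0.06, adjusted p = 7.44e-06). EFB1, the catalytic subunit gene, changed by -0.22 ± 0.05 (adjusted p = 0.00121). None of these 3 eEF1B genes had overlapping groups.

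The eEF2 probe set, annotated to EFT2, had 7194, 7218 and 6691 in treated wild type, against 9225, 9296 and 9583 in untreated wild type (-0.41 ± 0.06, adjusted p = 2.75e-05). The eEF1A probe set, annotated to TEF2, had 10399, 9870 and 10214 in treated wild type, against 10137, 9225 and 9296 in untreated wild type. It was not called with the main scaling, and its direction and call turned with other scalings: 0.09 ± 0.06 (adjusted p = 0.164) with quantile normalization, and -0.23 (adjusted p = 0.174) with median centring. With centring over all probe sets TEF2 was called lower (-0.57, adjusted p = 0.00585). The deposited TEF2 signal was 76.5% to 93.1% of the highest on its array. The highest values were 98.6% for YEF3, 88.5% for EFT2, 86.7% for TIF2 and 81.6% for EFB1, and whether these probe sets were saturated was not tested.

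Both termination genes fell by similar amounts. SUP35 (eRF3, the GTPase of release) had 1947, 1825 and 1914 in treated wild type, against 3024, 2795 and 3194 in untreated wild type (-0.66 ± 0.08, adjusted p = 6.5e-06). SUP45 (eRF1, which reads the stop codon) had 2426, 2605 and 2705 in treated wild type, against 4126, 3645 and 4089 in untreated wild type (-0.62 ± 0.08, adjusted p = 4.89e-06). The groups of neither gene overlapped.

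**Figure D3:**
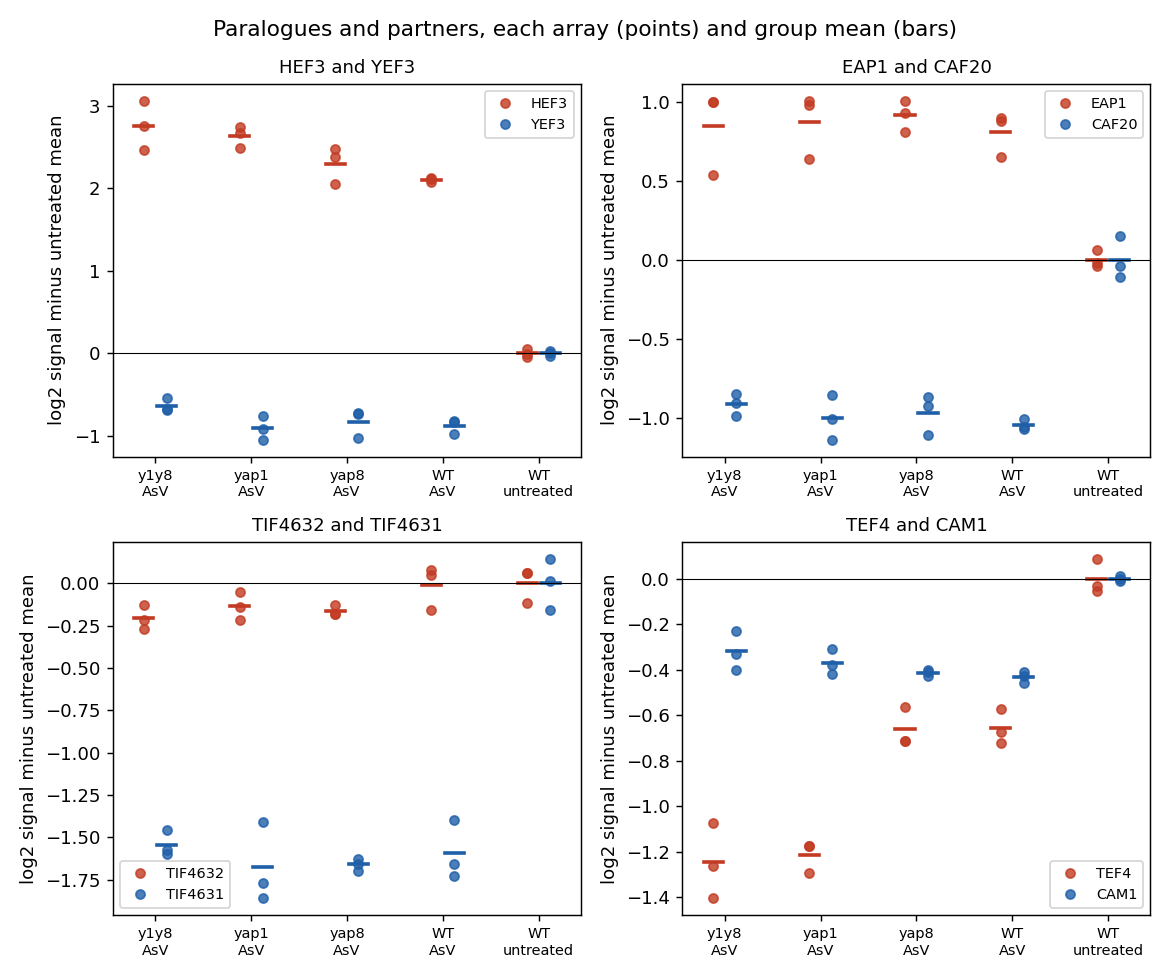
Log2 normalized signal of 4 pairs of genes on each array (points) and the group means (bars), each gene set to 0 at its own untreated wild-type mean (AsV, arsenate; WT, wild type). HEF3 and EAP1 lie above 0 on all 12 treated arrays while YEF3 and CAF20 lie below it, and TEF4 is lowest in y1y8 and yap1.

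The authors' deposited table for treated against untreated wild type was made with model-based intensities of the same arrays. It lists 28 of the 37 factors, 26 lower and 2 higher, each in the direction found here. The share of all genes that it lists was not counted, so whether 28 of 37 is many cannot be told. The fold bound nearest no change among these 28 is -1.22, for CAM1. The same direction for such clearly changed factors on the same arrays is thus no separate support. TIF35, SUI3, GCN3, GCD7 and GCD2 were called here but are not listed. Their falls here were 1.23-, 1.17-, 1.53-, 1.31- and 1.18-fold. Calls here had no fold limit, while no listed bound is nearer to no change than -1.22. Absence from the authors' table thus need not mean disagreement. That table gives folds of -2.95 for NEW1, -2.52 for PRT1, -2.29 for TIF4631 and -2.25 for NIP1. For HEF3 the authors' deposited table gives 3.55, and for EAP1 1.80. For EFT2 it gives -1.68, where the fall here was 1.33-fold, and 1.74-fold with median centring. For YEF3 the authors' deposited table gives -1.78, where the fall here was 1.84-fold, and 2.39-fold with median centring. For these 2 genes, how near the values lie depends on the scaling. The gap differed between genes, and PRT1 fell by the same 2.52-fold here. GCD1 (authors' fold -1.52) fell 2.16-fold here and 2.26-fold with median centring. FUN12 (authors' fold -1.41) fell 1.85-fold here and 2.37-fold with median centring.

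The next comparisons asked what loss of either regulator changed in treated cells. For rises in y1y8 the share of factors called was near that of all genes (10.8% of factors). For falls in y1y8 and for both directions in yap1 it was below that of all genes (2.70% of factors each). In yap8 almost no gene of any kind was called. In y1y8 against treated wild type 4 of 37 rose and 1 fell (10.1% and 9.88% of all genes), in yap1 1 rose and 1 fell (9.61% and 9.34% of all genes), and in yap8 none was called (0.125% of all genes). These comparisons share the treated wild-type arrays. The median log2 difference of the factors was 0.08 in y1y8, -0.02 in yap1 and 0.02 in yap8, where the medians of all genes were 0.05, 0.05 and 0.01.

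TEF4 was the factor with the largest fall where Yap1 was absent. It had 2519, 2879 and 2285 in y1y8, 2473, 2678 and 2688 in yap1 and 3685, 4095 and 3692 in yap8, against 4060, 3805 and 3667 in treated wild type. All 6 arrays of y1y8 and yap1 lay below all 6 of yap8 and treated wild type. TEF4 was picked by its calls, so this separation is no separate support, and the share over all genes was not counted. TEF4 fell by 0.59 ± 0.08 in y1y8 (adjusted p = 0.000217) and by 0.56 ± 0.08 in yap1 (adjusted p = 0.000406). In yap8 its difference was -0.01 (adjusted p = 1). The direct test of yap1 against yap8 gave -0.55 ± 0.08 (adjusted p = 0.000393), the only factor called in that comparison (all genes 21.8%), and that of y1y8 against yap8 gave -0.58 ± 0.08 (adjusted p = 0.000237), with 3 factors called (all genes 19.2%). The TEF4 calls held in all 23 alternative settings. In the authors' deposited table for yap1, TEF4 is the only translation factor listed, with a fold of -1.42. HEF3, also called here in yap1, is not listed there, and the share of all genes listed was not counted.

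CAM1, the paralogue of TEF4, had a mean normalized signal of 2998 ± 175 in y1y8 and 2896 ± 118 in yap1, against 2776 ± 51.8 in treated wild type (SD, n = 3 each). It was called in neither (0.11, adjusted p = 0.19 in y1y8; 0.06, adjusted p = 0.496 in yap1). The difference of TEF4 lay below that of CAM1 by 0.70 in y1y8 and by 0.62 in yap1 (exact permutation p = 0.1 for each, the smallest possible). The gene table places the small nucleolar RNA gene SNR38 inside TEF4. It names RRP14 and VMA5 as the nearest protein-coding genes on either side, and neither was called in y1y8 (0.05 and -0.01) or in yap1 (-0.01 and 0.07).

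HEF3 was higher under arsenate in both strains without Yap1 than in treated wild type. It had 860, 1056 and 1310 in y1y8, 1044, 994 and 877 in yap1 and 647, 811 and 866 in yap8, against 679, 675 and 657 in treated wild type. All arrays of y1y8 and yap1 lay above treated wild type, while yap8 overlapped it. HEF3 too was picked by its calls, and the share of all genes so separated was not counted. HEF3 exceeded treated wild type by 0.66 ± 0.14 in y1y8 (adjusted p = 0.00363) and by 0.53 ± 0.14 in yap1 (adjusted p = 0.0145). The yap1 call ended without yap1 replicate 1 (0.48, adjusted p = 0.0583). The difference in yap8 was 0.20 (adjusted p = 0.915), and y1y8 exceeded yap8 by 0.46 ± 0.14 (adjusted p = 0.0287), a call that ended without yap8 replicate 1 (0.34), y1y8 replicate 2 (0.47) or y1y8 replicate 3 (0.31). The call in y1y8 against yap8 also ended with centring over all probe sets (0.35) and with only the groups compared (0.46). The difference between yap1 and yap8 was not called (0.33, adjusted p = 0.101).

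**Figure D4:**
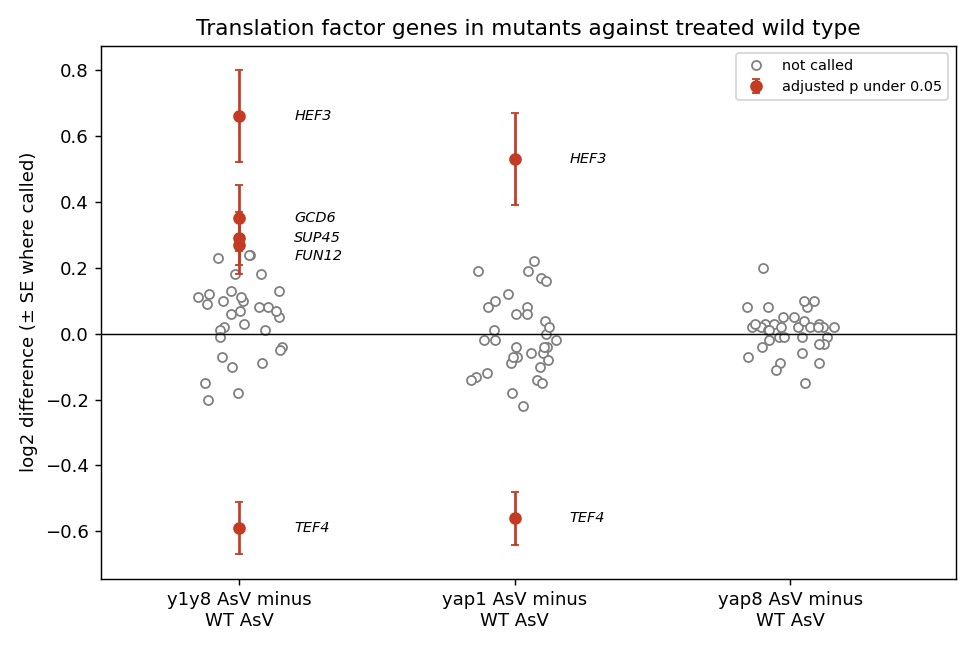
Log2 difference of each of the 37 measured genes between a treated mutant and treated wild type, with SE bars for the genes called at an adjusted p under 0.05 (filled and named). Points are spread sideways to be visible. TEF4 is below and HEF3 above the rest in y1y8 and yap1, and no gene is called in yap8.

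The other 3 factors called in y1y8 rose by small amounts, and each call ended with median centring. GCD6 had 2013, 2109 and 1792 in y1y8, against 1603, 1534 and 1493 in treated wild type (0.35 ± 0.10, adjusted p = 0.0268). SUP45 had 3091, 3118 and 3216 in y1y8, against 2426, 2605 and 2705 in treated wild type (0.29 ± 0.08, adjusted p = 0.0179). FUN12 had 2602, 2922 and 2836 in y1y8, against 2253, 2279 and 2409 in treated wild type (0.27 ± 0.09, adjusted p = 0.0461). The arrays of these 3 genes did not overlap between the groups. The genes were picked by their calls, so this is no separate support, and the share over all genes was not counted. The GCD6 call was also lost without treated wild-type replicate 2 (0.35) or 3 (0.33) or y1y8 replicate 1 (0.34) or 2 (0.30), and the SUP45 call without treated wild-type replicate 1 (0.25) or y1y8 replicate 3 (0.27). The FUN12 call was lost without any one of 9 arrays, at 0.23 to 0.30. SUP45 was also higher in y1y8 than in yap8, which had 2417, 2871 and 2530 (0.27 ± 0.08, adjusted p = 0.0231), a call that was lost with median centring too (0.26, adjusted p = 0.095) and without yap8 replicate 1 (0.22) or 3 (0.25) or y1y8 replicate 2 (0.28) or 3 (0.26).

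Over all 37 factors the 95% intervals of the difference from treated wild type lay between -0.77 and 0.95 in y1y8 and between -0.74 and 0.82 in yap1. In yap8 the differences from treated wild type ran from -0.15 to 0.20, and no factor had even an unadjusted p under 0.05 (6.59% of all genes did). The 95% intervals of the 37 factors in yap8 lay between -0.33 and 0.49, with 1.40-fold as the farthest limit. Each interval in this paragraph holds for a single gene with quantile normalization, so these limits do not bound all 37 factors at once. Between y1y8 and yap1 no factor was called by limma (all genes 0.0895%), with 6 at an unadjusted p under 0.05 (6.80% of all genes), and the intervals lay between -0.34 and 0.57. For additivity, limma tested whether y1y8 differed from what yap1 and yap8 give when added. It called 0 of the 37 factors (all genes 0.0537%), with 0 at an unadjusted p under 0.05 (4.24% of all genes), and the intervals lay between -0.53 and 0.67.

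Other genes around these factors were read from 7 lists with 46 genes, all measured. In treated against untreated wild type 28 fell, 9 rose and 9 were not called, with a median of -0.50. All these counts stand beside 39.2% lower and 41.9% higher over all genes. Of 7 genes of the Gcn pathway, which senses uncharged tRNA, 4 fell and 1 rose. RBG2, a ribosome-associated GTPase, fell most (-1.86 ± 0.14, adjusted p = 2.79e-08) and YIH1, an inhibitor of Gcn2 activation, rose by 0.24 ± 0.09 (adjusted p = 0.0239). The YIH1 call was lost without untreated wild-type replicate 2 (0.17) or treated wild-type replicate 1 (0.23) or 3 (0.22). It was also lost with centring over all probe sets (-0.09, adjusted p = 0.545). Of 6 recycling and rescue genes 3 fell and 2 rose. RLI1, the ATPase that splits ribosomes after termination, fell by 2.61 ± 0.10, or 6.09-fold (adjusted p = 2.9e-11), more than any of the 37 factors. HBS1, which acts on stalled ribosomes, rose by 0.31 ± 0.07 (adjusted p = 0.00104), but had -0.01 with centring over all probe sets.

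Of 6 genes for diphthamide, the modified histidine of eEF2, 4 fell and none rose, with DPH5 at -1.30 ± 0.11 (adjusted p = 6.23e-08). Of 11 genes for methylation or assembly of factors 7 fell and 3 rose. EFM4, a methyltransferase of eEF1A, fell by 2.58 ± 0.14 (adjusted p = 1.17e-09), while ZPR1, a folding factor of eEF1A, rose by 0.74 ± 0.12 (adjusted p = 4.49e-05), a call lost with centring over all probe sets (0.23, adjusted p = 0.193). Of 6 other factor-like genes 5 fell and 1 rose. GCD10, a subunit of the methylase of initiator tRNA, fell by 2.08 ± 0.15 (adjusted p = 1.77e-08). DBP1, a paralogue of DED1, rose by 1.69 ± 0.11, or 3.22-fold (adjusted p = 4.81e-09), while DED1 itself fell.

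Of 3 genes of nonsense-mediated decay, whose proteins bind the release factors, 2 fell and 1 rose, with NAM7 at -0.50 ± 0.10 (adjusted p = 0.00056) and UPF3 at 0.35 ± 0.10 (adjusted p = 0.00593), or -0.02 with centring over all probe sets. Of 7 mitochondrial translation factor genes 3 fell and 1 rose, with a median of -0.22, where 39.2% of all genes were called lower. TUF1, the mitochondrial counterpart of eEF1A, changed by -0.80 ± 0.11 (adjusted p = 1.54e-05) and AIM23, a mitochondrial initiation factor, by 0.53 ± 0.16 (adjusted p = 0.00745), a call lost with centring over all probe sets too (0.19, adjusted p = 0.278). For scale, the median change of 129 cytosolic ribosomal protein genes was -2.09, and its distance from the factors was not tested.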

How the data were processed

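Total RNA of 15 samples, isolated with hot phenol per the labels' protocols, was read on 1-colour Affymetrix yeast arrays. The deposited array files hold, per the file headers, a linear intensity (Signal) and a detection call for 10928 probe sets, and the values show no scaling between arrays. Partek is the tool listed in the submitters' processing notes, and how probes were summarised is not stated there. A deposited workbook holds the authors' model-based intensities, their signed linear fold (a score) and the percent of arrays called present, and 18 of its per-array columns were not used. Of the probe sets, 5638 matched 1 yeast gene (5498 by the platform annotation, 140 by the workbook), and for 48 genes with several the brightest was used, which left 5588 genes.

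Quantile normalization across arrays used every probe set, a floor of 1 was applied and values were put on the log2 scale. With limma 3.58.1 in R 4.3.3, group means of the 15 arrays were fitted and 8 comparisons made, two-sided, with p-values adjusted over 5588 genes by Benjamini and Hochberg and a threshold of 0.05, after a test of the fit on simulated data. For arrays their number limits the precision. A call means an adjusted p under that threshold. Values are given in every array for the largest changes of each step, for paralogues and for genes called between treated strains, and of each further list the largest rise and fall are named. The genes and lists were chosen with earlier results of these data known. Alternatives were median centring, normalization over yeast probe sets, 16 added before log2, a presence filter, probe set means, the replicate number as a block, the compared groups alone and each array left out. Gene names and neighbours come from a RefSeq gene table of assembly R64, and no coordinates are given because the files name no build.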

Additional observations from a re-analysis of the deposited data

Results flagged for a closer look

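Loss of Yap1 and loss of Yap8 differed in their effect on TEF4 under arsenate by a direct test. TEF4 differed by -0.55 between yap1 and yap8 and by -0.58 between y1y8 and yap8, with all 6 arrays of yap1 and y1y8 below the 3 of yap8. HEF3 differed by 0.46 between y1y8 and yap8, with 2 of the 3 y1y8 arrays above all of yap8. SUP45 differed by 0.27 between y1y8 and yap8, with all 3 y1y8 arrays above all of yap8. These differences were tested with limma, which adjusted p over all genes within each comparison.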

How the results depend on the processing

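The calls for treated against untreated wild type were the same for 31 of the 37 factors in all 23 alternatives, and the exceptions were TIF4632, HCR1, SUI3, GCD2, GCD6 and TEF2. Leaving out each array in turn gave 29 to 31 factors lower and 2 higher. For y1y8 against treated wild type, 5 factors were called, but 2 with median centring and 2 with centring over all probe sets, an alternative chosen after seeing the data. Leaving out arrays gave 3 to 6, with 3 without treated wild-type replicate 3, y1y8 replicate 2 or y1y8 replicate 3. For y1y8 against yap8, 3 were called, but 1 with centring over all probe sets and 1 with only the groups compared. Leaving out arrays gave 1 to 4, with 1 without yap8 replicate 1, y1y8 replicate 2 or y1y8 replicate 3. For yap1 against yap8, 1 was called, but 2 with only the groups compared, and 1 to 2 with arrays left out (2 without untreated wild-type replicate 2 or y1y8 replicate 3). For yap1 against treated wild type, leaving out arrays gave 2 to 3. The cause of these shifts was not tested.

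Centring over all probe sets moved the median of all genes to -0.37 under arsenate. Of the genes then called, 34.2% were higher and 65.8% lower (51.7% and 48.3% with quantile normalization). That centring ended the calls of ZPR1 (0.23), AIM23 (0.19), YIH1 (-0.09), HBS1 (-0.01) and UPF3 (-0.02). It called TIF4632 (-0.35), HCR1 (-0.70), GCD6 (-0.48) and TEF2 (-0.57) lower, and of these only TEF2 had lain above 0 with quantile normalization. The SUI3 call ended without untreated wild-type replicate 1 or 3, treated wild-type replicate 1 or 3, yap1 replicate 3, yap8 replicate 3 or y1y8 replicate 1 or 2. The GCD2 call ended without untreated replicate 1 or 3, any treated wild-type array, yap1 replicate 3, any yap8 array or y1y8 replicate 2. The smallest value was -0.16 for GCD2, without untreated replicate 1. With the replicate number as a block 29 factors were lower and 2 higher under arsenate, and 2, 0 and 6 were called in yap1, yap8 and y1y8. Same-numbered arrays of different groups had deviations correlated at -0.329 to 0.408, over 0.1 in 6 of 30 pairs, so the numbers were not taken as pairs. Whether probe sets near the highest signal of an array (TEF2, YEF3 and EFT2) were saturated was not tested.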

Other observations

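SPO1, the protein-coding gene next to HEF3 on one side in the gene table, had a log2 change of 2.01 in treated against untreated wild type (adjusted p = 1.97e-08), beside 2.10 for HEF3. PBI2, on the other side, had -0.29 (adjusted p = 0.00525) there, and 0.44 in y1y8 (adjusted p = 0.00211) and 0.43 in yap1 (adjusted p = 0.00264) against treated wild type. SPO1 had 0.10 and 0.24 in those strains and was not called. These neighbours were looked up after the values of HEF3 were seen.

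Among the genes around the factors, EFM1, a methyltransferase of eEF1A, was lower in y1y8 (-0.66 ± 0.15, adjusted p = 0.00828) and in yap1 (-0.75 ± 0.15, adjusted p = 0.00378) than in treated wild type, as was TMA20, a ribosome recycling factor (-0.28 ± 0.09, adjusted p = 0.0433, and -0.37 ± 0.09, adjusted p = 0.0111). IFM1, a mitochondrial initiation factor, was higher in yap1 (0.60 ± 0.13, adjusted p = 0.00649) but was not called in y1y8 (0.35 ± 0.13, adjusted p = 0.0847). These genes were chosen after their values were seen. Of the 46 genes, 2 rose and 6 fell in y1y8 (10.1% and 9.88% of all genes), and 1 rose and 5 fell in yap1 (9.61% and 9.34% of all genes).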
